A study of Mus musculus with 5 samples.

Results

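Complex I of the respiratory chain was followed through every gene on the array whose single symbol begins with Nduf, which gave 46 of the 19505 genes measured in mRNA from soleus myocytes. Each of the 46 genes had 1 probe set. By role, 38 of them encode structural subunits, made up of 6 core subunits, 30 accessory subunits and *Ndufa4* with its paralog *Ndufa4l2*, and 8 encode Ndufaf assembly factors. The *Ndufa4* protein was first counted as part of complex I and has since been assigned to complex IV. The values of the pair are therefore described on their own, but the pair is kept in the counts of structural genes. The accessory subunit gene *Ndufb1* and the 7 subunit genes of mitochondrial DNA were not analysed here.

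Complex I, or NADH:ubiquinone oxidoreductase, takes electrons from NADH, passes them along a flavin and a chain of iron-sulfur clusters to ubiquinone, and uses the energy to pump protons across the inner mitochondrial membrane. Its peripheral arm, in the matrix, holds the nuclear-encoded core subunits that carry these cofactors, its membrane arm holds the core subunits encoded in mitochondrial DNA, and accessory subunits surround both. Assembly factors help to build, modify or join these parts and are not found in the finished enzyme. The soleus is a slow, oxidative muscle with many mitochondria.

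All 5 samples came from a single group of sedentary mice that carried Myogenin-Cre and the floxed allele RiboTag-Rpl22fl/fl-HA, numbered 1, 3, 11, 14 and 16, with the left soleus of each mouse on 1 Clariom S array. Cre is driven by myogenin, so the HA tag on the ribosomal protein RPL22 marks cells that are or have been myogenin-positive, and ribosomes of those cells, with their mRNA, were taken with an anti-HA antibody. The labels give neither age nor sex, and the Methods describe sexually mature males unless otherwise stated. There is no control group, no whole-muscle sample and no other muscle, so levels were read against background genes of the same arrays and differences were read only between mice.

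Signals are in log2 units, in which a step of 1 is a factor of 2, and they ran up to 19.93 on 4 arrays and 19.90 on the array of mouse 16. Any pair of arrays correlated at Pearson's r of 0.976 to 0.986 across probe sets, which are no independent replicates. The background cutoff, set on each array so that 95% of 1091 odorant receptor genes read below it, lay between 5.25 and 5.32. Markers of slow and of fast myofibers were above background in 7 of 7 and 7 of 7 genes. Of other cell types, 4 of 5 endothelial, 4 of 4 fibroblast, 2 of 4 smooth muscle, 1 of 4 satellite cell, 1 of 3 adipocyte and 0 of 4 immune markers were above it, and *Pax7*, which defines satellite cells, read 4.34 ± 0.27 (SD, n = 5). All 3 Y-linked genes measured were above the cutoff in mice 3, 11 and 14 and below it in mice 1 and 16. For mice 1 and 16 this is at odds with the males of the Methods, and their sex was not settled. The main values are therefore also given without these 2 mice. In such bulk samples, fewer cells of a type and less RNA per cell cannot be told apart.

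Promoter letters are shown first because the nuclear genes of complex I are known targets of a few transcription factors, and motifs of 4 of these were searched on both strands from 250 bases before to 50 bases after each start site. RefSeq promoters (GRCm38.p6) matched 41 of the 46 genes, and *Ndufa2*, *Ndufa4l2*, *Ndufaf6*, *Ndufb9* and *Ndufs1* had no entry. The letters AAGATGGC, part of the YY1 motif, were found in 8 of 41 Nduf promoters (19.5%), against 5.93% of 6942 promoters of genes above background and 3.64% of 15691 promoters of all genes measured. All 8 matches lay after the start site on the strand of the gene, as did those of 245 of 571 genes (42.9%) with a match among all genes measured. The 8 started 11 to 39 bases into the transcript. These letters contain ATG, so a match can fall on a start codon, and how many of the 8 do was not tested. In the windows below, read 5′ to 3′ on the gene's strand, capitals mark the match.
*Ndufs7* (chr10:80249463-80249490, + strand): ggccgaggccAAGATGGCggcgctggcg
*Ndufa3* (chr7:3617385-3617412, + strand): cgccaagaacAAGATGGCcgggagtaag
*Ndufa9* (chr6:126849098-126849125, - strand): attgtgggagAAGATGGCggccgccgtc
*Ndufb8* (chr19:44555393-44555414, - strand): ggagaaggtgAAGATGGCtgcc
*Ndufc1* (chr3:51408916-51408943, - strand): cctgcggaacAAGATGGCgccgtccgta
*Ndufs4* (chr13:114388045-114388069, - strand): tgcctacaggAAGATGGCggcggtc
*Ndufs6* (chr13:73328433-73328459, - strand): ggtcaccggcAAGATGGCggcggtgct
*Ndufaf8* (chr11:120098934-120098961, + strand): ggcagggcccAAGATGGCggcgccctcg

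The consensus NRF1 motif, which reads the same on both strands, was found in 3 of 41 Nduf promoters (7.32%), against 2.65% of promoters of genes above background and 1.56% of all. They were the promoters of 1 accessory subunit gene and 2 assembly factor genes, shown with the match in capitals.
*Ndufa11* (chr17:56717692-56717721, + strand): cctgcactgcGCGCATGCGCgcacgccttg
*Ndufaf4* (chr4:24897960-24897989, + strand): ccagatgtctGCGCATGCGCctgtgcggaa
*Ndufaf5* (chr2:140170652-140170681, + strand): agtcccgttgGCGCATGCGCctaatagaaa

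The ETS letters CCGGAAGT, to which GABPA binds, were found in 1 Nduf promoter, that of *Ndufs3* (2.44%), against 10.3% of promoters of genes above background and 5.88% of all. The letters TNAAGGTCA, of the estrogen-related receptor motif, were found in 1, that of *Ndufb4* (2.44%), against 0.951% and 1.13%. In all, 13 of 41 Nduf promoters held a match to at least 1 of the 4 motifs, and the remaining promoters held none of these letters in the window. The pooled share over other genes was not computed, so the 13 cannot be read as many or few. A match is a stretch of letters and was not tested as a binding site.

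**Figure D1:**
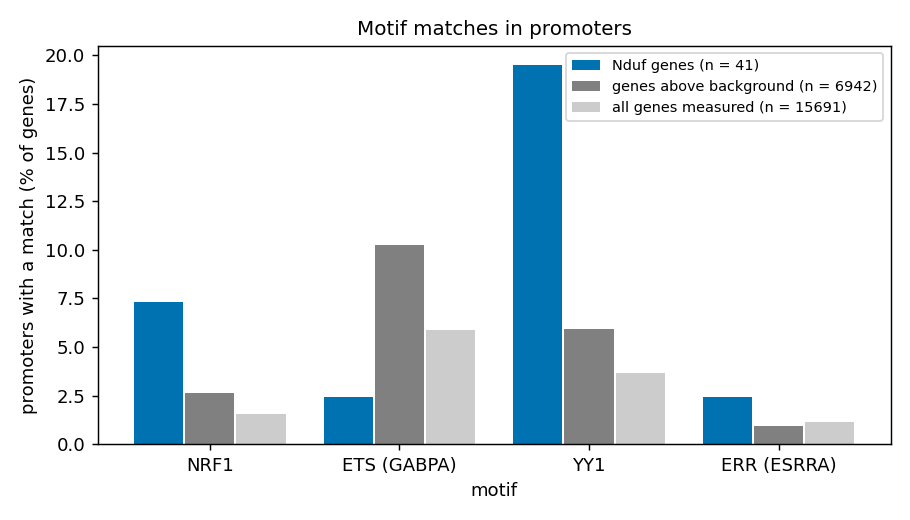
Share of promoters (%) with a match to each of 4 motifs, for 41 Nduf genes, 6942 genes above background and 15691 genes measured. The YY1 letters are in 19.5% of Nduf promoters, against 5.93% and 3.64%, and the ETS letters in 2.44%, against 10.3% and 5.88%.

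Complex I genes were among the strongest signals in soleus myocyte mRNA. Calling a gene above background took a positive distance between signal and cutoff and, in a limma fit over all genes, an adjusted p under 0.05, and this called 45 of 46 Nduf genes, against 43.5% of all genes tested. All 45 also lay above the cutoff in every mouse, against 42.5% of all genes, and 45 were called without mice 1 and 16. The called genes comprised 37 of 38 structural subunit genes and 8 of 8 assembly factor genes, and *Ndufa4l2* was not called. The mean signal of 35 of 46 Nduf genes was in the top 5% of genes, at or above 12.76, against 5.00% of all genes by the choice of that level. All 35 were structural, which is 92.1% of the 38 structural genes, against 0 of 8 assembly factors. Without the *Ndufa4* pair, 34 of 36 structural genes (94.4%) were in the top 5%. Probe sets differ in affinity, so an order of signals between genes is not an order of mRNA amounts.

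**Figure D2:**
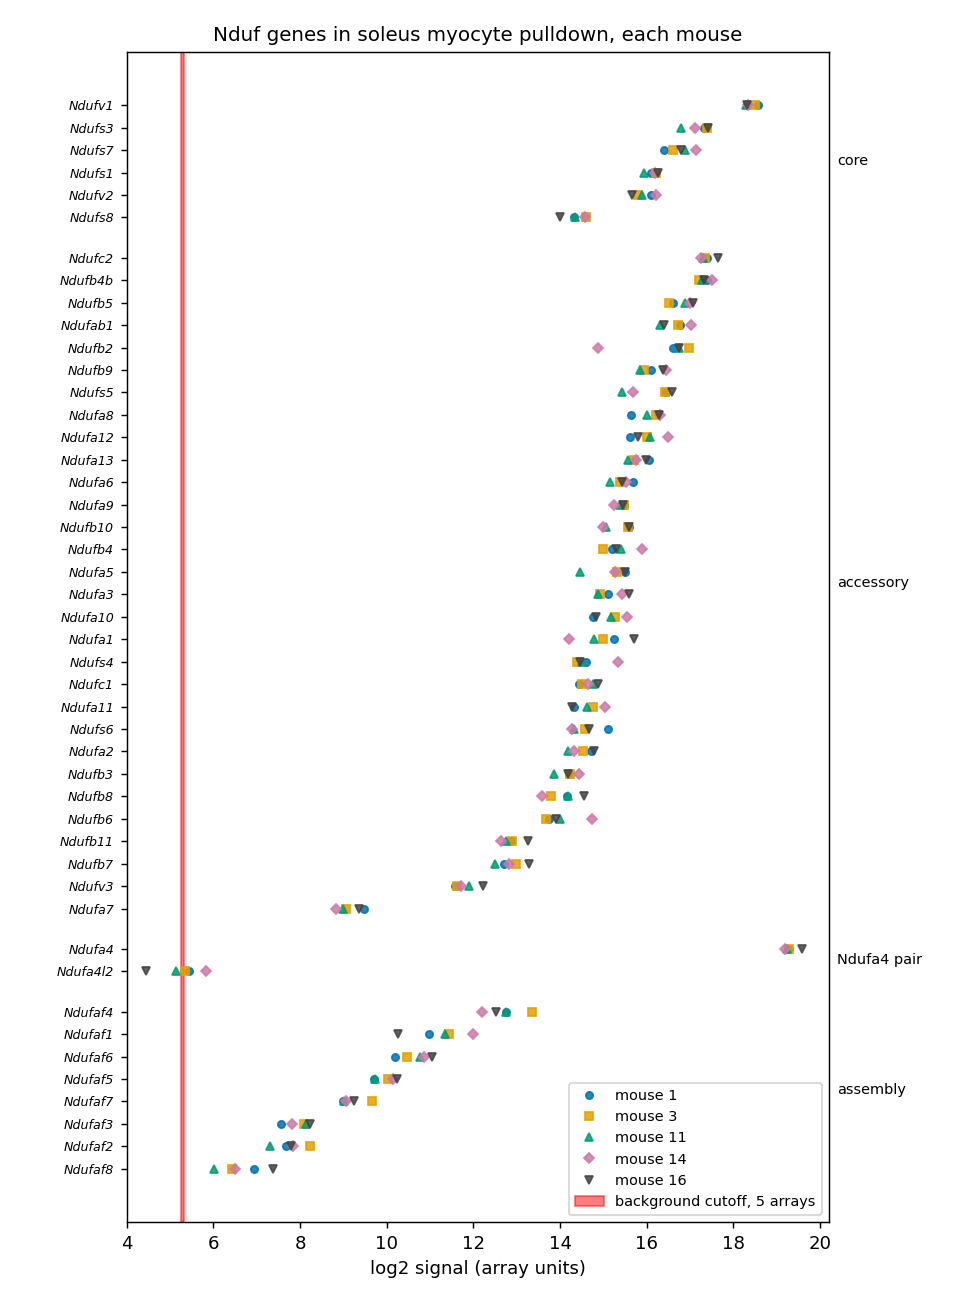
Log2 signal of each of the 46 Nduf genes in each of 5 mice, by role, with the background cutoffs of the 5 arrays as a red band (5.25 to 5.32). Most structural subunit genes lie between 12.86 and 19.32, the 8 assembly factors lie between 6.65 and 12.72 (means), and *Ndufa4l2* straddles the band.

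The 6 core subunit genes had a median signal of 16.45. *Ndufv1* encodes the subunit that binds NADH and the flavin, where electrons enter the enzyme, and read 18.58, 18.50, 18.28, 18.34 and 18.31 in mice 1, 3, 11, 14 and 16, which lie close together. Its mean of 18.40 ± 0.13 (SD, n = 5) was above that of 99.7% of genes, and it stood 13.13 ± 0.13 above the cutoff (standard error, limma, adjusted p = 4.86e-15). *Ndufs3*, a subunit of the peripheral arm near the ubiquinone site, read 17.33, 17.38, 16.78, 17.10 and 17.40 in the same order, with mouse 11 lowest. *Ndufs7*, which carries the iron-sulfur cluster that hands electrons to ubiquinone, read 16.40, 16.60, 16.89, 17.13 and 16.79, with mouse 14 highest and mouse 1 lowest. Mouse 11 is thus lowest for *Ndufs3* and second highest for *Ndufs7*, and the core genes did not rank the mice alike.

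The remaining core genes also encode subunits that carry iron-sulfur clusters. *Ndufs1*, the largest subunit, read 16.09, 16.22, 15.94, 16.20 and 16.26, a mean of 16.14 ± 0.13 (SD, n = 5). *Ndufv2*, the partner of the flavin subunit, read 16.10, 15.79, 15.89, 16.22 and 15.66. *Ndufs8*, the lowest of the core genes, read 14.32, 14.60, 14.35, 14.59 and 14.01, with mouse 16 lowest. Even so, *Ndufs8* at 14.37 ± 0.24 (SD, n = 5) had a signal above that of 97.5% of genes, and no assembly factor reached it.

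The 30 accessory subunit genes had a median signal of 15.20, and all 30 were called. *Ndufc2*, a subunit of the membrane arm, was highest, at 17.40, 17.34, 17.30, 17.25 and 17.65 in mice 1, 3, 11, 14 and 16, with mouse 16 above the other 4. *Ndufb4b* followed at 17.40, 17.21, 17.27, 17.50 and 17.33, a mean of 17.34 ± 0.11 (SD, n = 5). By its symbol it is a copy of *Ndufb4*, which read 15.36 ± 0.33 (SD, n = 5), and how far their probe sets tell such copies apart was not tested. *Ndufb5*, of the membrane arm, read 16.61, 16.51, 16.89, 17.01 and 17.07, lower in mice 1 and 3 than in mice 11, 14 and 16. *Ndufab1*, the mitochondrial acyl carrier protein that also serves fatty acid synthesis in mitochondria, read 16.77, 16.73, 16.31, 17.03 and 16.39. Its mice 11 and 16 lay below the rest.

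At the low end of the accessory genes were *Ndufa7*, *Ndufv3* and *Ndufb7*. *Ndufa7*, a subunit of the peripheral arm, read 9.48, 9.07, 8.99, 8.83 and 9.35, a mean of 9.15 ± 0.27 (SD, n = 5), well apart from the other accessory genes. *Ndufv3*, a small subunit beside the flavin site, read 11.57, 11.63, 11.91, 11.72 and 12.22, with mouse 16 highest. *Ndufb7*, a subunit of the membrane arm on the side of the intermembrane space, read 12.70, 12.99, 12.49, 12.82 and 13.28, again with mouse 16 highest. All of these were far above background, the nearest being *Ndufa7* at 3.87 ± 0.15 above the cutoff (standard error, limma, adjusted p = 1.58e-10). The remaining accessory genes had mean signals between 12.88 (*Ndufb11*) and 16.38 (*Ndufb2*). By symbol, the median signal was 15.20 for the 12 Ndufa genes outside the *Ndufa4* pair, 15.36 for the 11 Ndufb genes, 16.02 for the 2 Ndufc genes, 16.11 for the 7 Ndufs genes and 15.93 for the 3 Ndufv genes, the Ndufs and Ndufv families holding core and accessory subunits alike.

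The *Ndufa4* pair held both ends of the range. *Ndufa4* had the highest signal of all 46 genes, 19.28, 19.29, 19.24, 19.20 and 19.58 in mice 1, 3, 11, 14 and 16, with mouse 16 above the other 4, and its mean of 19.32 ± 0.15 (SD, n = 5) was above that of 99.8% of genes. This is within 1 log2 unit of the highest signal on the arrays. *Ndufa4l2*, a paralog known to be induced in hypoxia, read 5.43, 5.34, 5.14, 5.82 and 4.43, with mice 1, 3 and 14 above the cutoff and mice 11 and 16 below it. Its mean was 5.23 ± 0.51 (SD, n = 5), and relative to the cutoff it stood at -0.04 ± 0.19 (standard error, limma, adjusted p = 0.830). It was the sole Nduf gene whose signal was not told apart from background. The sign of that distance depended on mouse 16, and was 0.15 without it.

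The 8 Ndufaf assembly factor genes were all called above background, with a median signal of 9.58. *Ndufaf4*, which acts early in building the ubiquinone-binding part of the peripheral arm, was highest at 12.75, 13.35, 12.76, 12.20 and 12.52, with mouse 3 above the rest. *Ndufaf1*, which with *Ecsit* and *Acad9* helps to build the membrane arm, read 10.99, 11.43, 11.35, 11.98 and 10.25, so that mouse 14 was highest and mouse 16 lowest, 3.32-fold apart. *Ndufaf6*, needed early in assembly, read 10.19, 10.47, 10.77, 10.87 and 11.05. For *Ndufaf6*, mouse 16 was highest and mouse 1 lowest, so the 2 genes put mouse 16 at opposite ends.

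The lowest assembly factors still stood clear of background. *Ndufaf3*, which works with *Ndufaf4*, read 7.55, 8.09, 8.13, 7.81 and 8.23. *Ndufaf2*, a paralog of the accessory subunit gene *Ndufa12* that binds late assembly intermediates, read 7.67, 8.23, 7.30, 7.83 and 7.78. *Ndufaf8*, a partner of *Ndufaf5*, was lowest at 6.93, 6.43, 6.02, 6.51 and 7.38, above the cutoff in every mouse, by 1.38 ± 0.19 on average (standard error, limma, adjusted p = 2.72e-05). The other two had mean signals of 9.97 ± 0.24 for *Ndufaf5*, which hydroxylates the core subunit encoded by *Ndufs7*, and 9.19 ± 0.27 for *Ndufaf7*, a methyltransferase (SD, n = 5 each). Of the genes with an NRF1 match shown above, *Ndufaf4* was thus the highest of the assembly factors and *Ndufaf5* the fourth.

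Structural subunit genes had higher signals than assembly factor genes in every mouse. The median signal of the 38 structural genes was 15.49, 15.35, 15.17, 15.38 and 15.55 in mice 1, 3, 11, 14 and 16, against 9.35, 9.84, 9.37, 9.61 and 9.73 for the 8 assembly factors. The difference was 6.14, 5.51, 5.80, 5.77 and 5.81 log2 units, a mean of 5.81 ± 0.22 (SD, n = 5), and its spread between mice was small against its size. It was 5.69 without mice 1 and 16. Leaving out the *Ndufa4* pair did not change the structural median of any mouse at this rounding. The median gene of the structural class was above 98.4% of all genes in mean signal, and that of the assembly factors above 83.6%. The classes overlapped through 3 structural genes, *Ndufv3*, *Ndufa7* and *Ndufa4l2*, which read below *Ndufaf4*. Since the classes are made of different probe sets, this is a description of signals, and no test was made over the genes.

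Genes outside the Nduf symbols placed these levels. Of 13 further assembly factors of complex I with other names, 12 were measured and all 12 were called, with a median signal of 9.49, against 9.58 for the Ndufaf genes. *Dmac1*, for the far part of the membrane arm, was highest at 13.49, 13.29, 13.19, 13.79 and 13.83. *Ecsit* read 11.94, 11.96, 12.09, 12.08 and 11.63, and *Aifm1*, a flavoprotein of the intermembrane space needed for complex I biogenesis, 11.79, 12.33, 11.98, 11.77 and 11.48. The lowest was *Tmem186*, at 5.64 ± 0.16 (SD, n = 5), which stood 0.37 ± 0.14 above the cutoff (standard error, limma, adjusted p = 0.0245). The 40 nuclear subunit genes of complexes II to V that were measured, of 41 listed, were all called, with a median signal of 16.66, and 38 of the 40 were in the top 5% of genes, so high signals were not particular to the structural subunits of complex I.

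The signals of structural Nduf genes varied little between mice, and the 8 Ndufaf assembly factor genes had a higher median SD, which other assembly factors did not share. The median SD over 5 mice was 0.279 for the 46 Nduf genes, against 0.363 for all 8482 genes called above background, and the median range from the lowest to the highest mouse was 0.673 log2 units (1.59-fold), against 0.899 (1.87-fold). A range above 1 log2 unit was found in 9 of 46 Nduf genes, against 41.1% of all genes called. By role, it was found in 6 of 38 structural genes and 3 of 8 assembly factor genes. Spread was smaller among strong signals, with a median SD of 0.316 for genes called at a mean signal of 12 or more and 0.372 for those under 12. The median SD of the 8 Ndufaf assembly factors, most of them under 12, was 0.337, against 0.270 for the 38 structural genes. For the 12 assembly factors with other names it was 0.282, and 2 of those 12 had a range above 1 log2 unit. The median SD of both sets of assembly factors was thus below that of genes called under 12. Of genes called under 12, 42.6% had a range above 1 log2 unit. At 12 or more, the median SD was 0.275 for 35 structural genes, 0.211 for 38 genes of complexes II to V and 0.316 for all 1311 genes called. The gap to other genes was thus smaller among strong signals, and genes of complexes II to V, some of them near the top of the scale, varied less than structural Nduf genes. Without mice 1 and 16 the median SD of Nduf genes was 0.256.

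**Figure D3:**
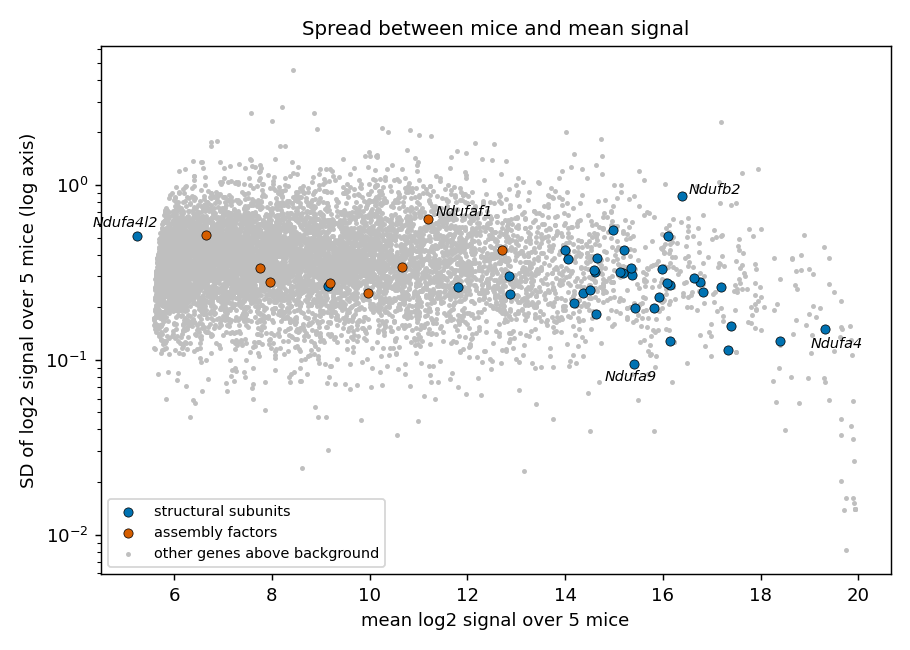
SD of log2 signal over 5 mice (log axis) against mean log2 signal, for structural subunit genes, assembly factor genes and all other genes called above background. Nduf genes have a median SD of 0.279, *Ndufb2* is highest at 0.859 and *Ndufa9* lowest at 0.095, and the spread of all genes narrows near the top of the scale.

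The steadiest genes were *Ndufa9*, *Ndufb4b* and *Ndufs1*. *Ndufa9*, a subunit at the junction of the 2 arms whose promoter window is shown above, read 15.47, 15.47, 15.39, 15.25 and 15.45 in mice 1, 3, 11, 14 and 16, and its highest and lowest mice were 1.17-fold apart. *Ndufb4b* and *Ndufs1*, given above, were 1.23-fold and 1.25-fold apart. In all, 9 of 46 Nduf genes had an SD under 0.2, and 6 had an SD over 0.5.

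The widest spread was that of *Ndufb2*, a small subunit of the membrane arm. It read 16.60, 16.98, 16.73, 14.87 and 16.75, so that mouse 14 lay 4.32-fold below the highest mouse while the other 4 lay close together, and its SD was 0.859. *Ndufaf1* followed with an SD of 0.639, from the values above. *Ndufa1*, a subunit of the membrane arm encoded on the X chromosome, read 15.25, 14.99, 14.77, 14.22 and 15.71, an SD of 0.555. Mouse 16 was highest, mouse 1 next and mouse 14 lowest. Mice 16 and 1 are also those with Y-linked genes below the cutoff, and whether the 2 observations are related was not tested. For *Ndufb11*, also encoded on the X chromosome, mouse 16 was highest and mouse 14 lowest, but mouse 1 lay below mouse 3. *Ndufaf8* had an SD of 0.519, with mouse 16 highest and mouse 11 lowest. *Ndufs5*, a membrane arm subunit on the side of the intermembrane space, read 16.44, 16.42, 15.43, 15.69 and 16.57, an SD of 0.512, and fell into a higher set of mice 1, 3 and 16 and a lower set of mice 11 and 14.

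A single mouse stood apart from the other 4, by Dixon's ratio above 0.71, for 4 of 46 Nduf genes. Besides *Ndufa4* and *Ndufb2* these were *Ndufa5*, of the peripheral arm, at 15.50, 15.32, 14.47, 15.26 and 15.49 with mouse 11 low, and *Ndufs4*, a peripheral arm subunit whose loss causes Leigh syndrome in humans and a similar disease in mice, at 14.59, 14.39, 14.51, 15.33 and 14.47 with mouse 14 high. The mouse that stood apart was thus mouse 16, 14, 11 and 14 for *Ndufa4*, *Ndufb2*, *Ndufa5* and *Ndufs4*, and not always on the same side. Such a mouse was found for 8.70% of Nduf genes, against 5.60% of all genes called.

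Across the set, Nduf signals leaned high in mouse 16 and low in mouse 11. Mouse 16 had the highest value for 19 of 46 Nduf genes (41.3%), against 21.6% of all genes called, and mouse 14 for 15 (32.6%), against 26.7%. Mouse 11 was highest for 0 of 46, against 19.7% of all genes called, and lowest for 15 (32.6%), against 17.8%. The median deviation of Nduf genes from their own means was -0.02, 0.01, -0.11, 0.05 and 0.18 log2 units in mice 1, 3, 11, 14 and 16, against -0.04, -0.00, 0.02, 0.02 and 0.01 for all genes called. After a further quantile normalization they were 0.02, 0.03, -0.15, 0.01 and 0.20, so that the sign for mouse 1 turned. Genes of 1 array share that array, so the counts are a description of 5 arrays.

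**Figure D4:**
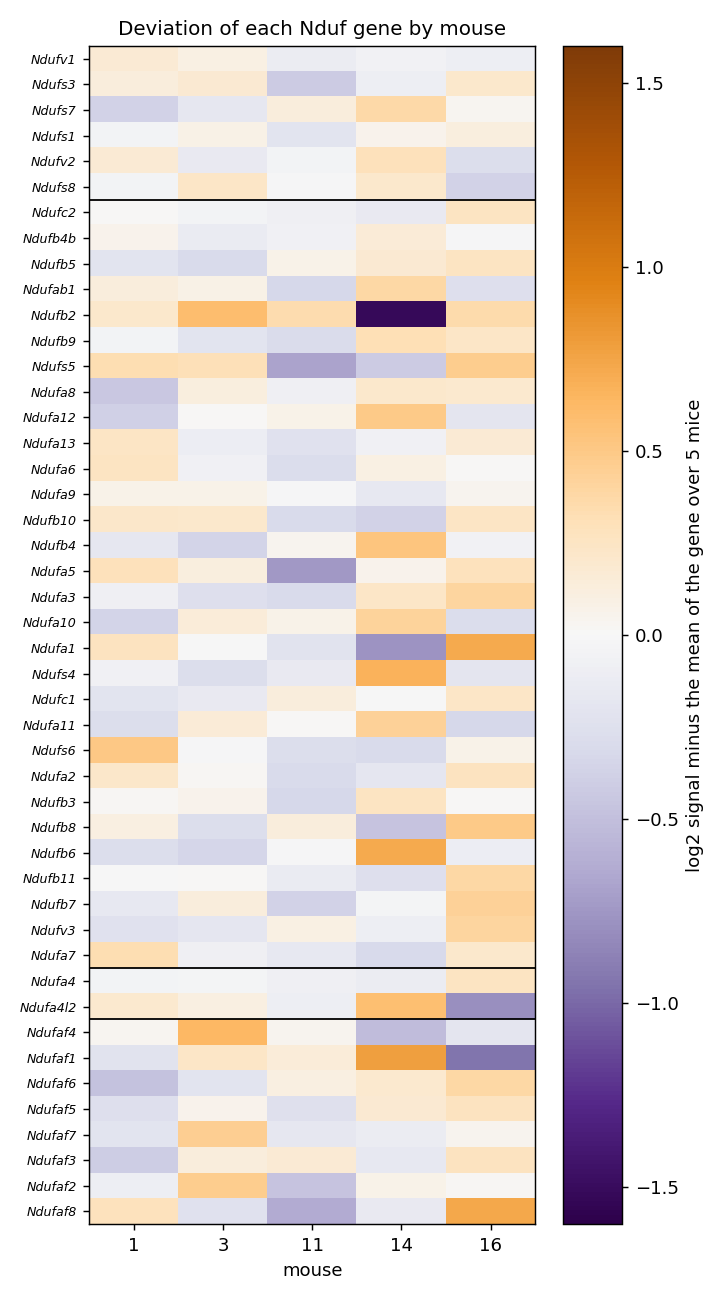
Deviation of each Nduf gene from its own mean over 5 mice (log2 units, colour) in each mouse, with lines between core, accessory, *Ndufa4* pair and assembly factor genes. Mouse 11 is highest for 0 of 46 genes and mouse 16 for 19, and the darkest cell is *Ndufb2* in mouse 14.

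By role, the median deviation was 0.01, 0.00, -0.11, 0.05 and 0.18 for structural genes in mice 1, 3, 11, 14 and 16, and -0.21, 0.18, -0.06, -0.03 and 0.15 for assembly factors. Among the 13 Ndufb and Ndufc genes, whose products lie in the membrane arm, mouse 16 was highest for 7 and lowest for 0. Among the 6 core genes it was highest for 2 and lowest for 2. The subunit genes of complexes II to V had median deviations of -0.02, -0.04, -0.05, 0.03 and 0.08 in the same order, with mouse 16 highest for 16 of 40 and lowest for 10 of 40. Markers of other cell types also differed between these mice. In mouse 11, the summed linear signal of 4 fibroblast markers was the lowest of the 5 mice (512, against 1005 to 1666). The same held for 3 adipocyte markers (883, against 1785 to 3047) and 5 endothelial markers (349, against 361 to 624). It also held for 4 smooth muscle markers (389, against 406 to 636). For 4 satellite cell markers the sum was highest there (469, against 186 to 350). Such sums follow the strongest genes. Gene by gene, mouse 11 was lowest for 3 of 4 fibroblast and 1 of 3 adipocyte markers, the latter being *Fabp4*, the only one called. It was lowest for 1 of 5 endothelial and 2 of 4 smooth muscle markers. It was highest for 1 of 4 satellite cell markers, *Cdh15*, again the only one called. In mouse 16, the summed signal was the lowest for 4 immune markers (77.7, against 81.2 to 92.8), none of them called. It was second lowest there for endothelial (361) and smooth muscle (406) markers. For slow myofiber markers it was the highest (22.51 as log2, against 22.14 to 22.47), mouse 16 being highest for 3 of 7 genes and lowest for 1. Mice 1 and 11 were, with ties counted, each highest for 3 of 7 as well, so the gene counts did not set mouse 16 apart. Most of these markers read near the top of the scale. Slow myofiber markers were lowest in mouse 14 for 6 of 7 genes, at a log2 summed signal of 22.14, against 22.38 to 22.51 in the others. The log2 summed signal of 7 fast myofiber markers was highest there, at 22.44, against 22.19 to 22.32. Counting ties, mouse 14 was highest for 4 of these 7 fast markers and lowest for 2. The part of these differences in the Nduf values was not tested.

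Of 8 listed regulators of mitochondrial genes, 7 were measured and 6 called, with SDs between mice of 0.232 (*Yy1*) to 2.01 (*Ppargc1a*), beside a median SD of 0.279 for Nduf genes. *Ppargc1a*, the coactivator PGC-1α that drives mitochondrial biogenesis, read 15.73, 16.11, 13.22, 13.88 and 11.17 in mice 1, 3, 11, 14 and 16, a 30.7-fold range, with mouse 16 lowest. Structural complex I genes had their highest median in mouse 16, 15.55, against 15.17 to 15.49 in the other mice. *Gabpa*, the DNA-binding subunit of an ETS factor, read 13.40, 13.70, 12.91, 13.06 and 13.40. *Ppargc1b*, a relative of *Ppargc1a*, read 9.46, 10.12, 9.80, 10.91 and 10.65, with mice 14 and 16 highest. *Pprc1*, a further relative, was not called, at 5.15 ± 0.41 (SD, n = 5).

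Of the other regulators, named after their values were seen because their motifs or role bear on these genes, *Tfam*, which maintains and transcribes mitochondrial DNA, read 10.16, 9.55, 8.47, 9.61 and 10.15, with mouse 11 lowest. *Nrf1* read 7.41, 7.62, 8.73, 7.48 and 7.52, with mouse 11 above the other 4. *Yy1* read 9.89 ± 0.23 (SD, n = 5). Mouse 11, the lowest mouse for 15 of 46 Nduf genes, was thus lowest for *Tfam* and highest for *Nrf1*. With 5 mice no correlation was computed.

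**Figure D5:**
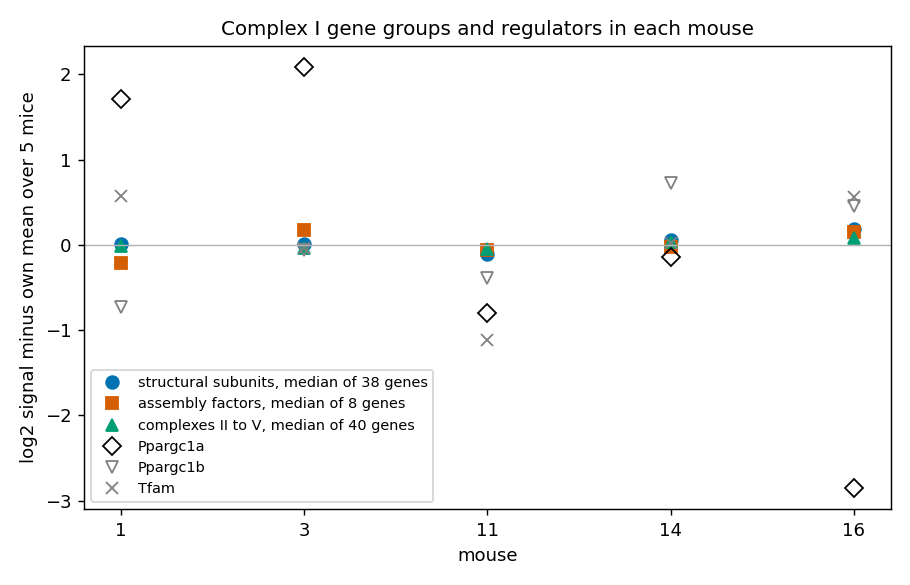
Median deviation from the own mean (log2 units) of structural subunit genes, assembly factor genes and complexes II to V in each of 5 mice, beside the deviation of *Ppargc1a*, *Ppargc1b* and *Tfam*. The group medians run from -0.21 to 0.18, *Ppargc1a* is lowest in mouse 16, and group medians and single genes are not compared in size.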

How the data were processed

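Anti-HA eluates of 5 left soleus muscles were each hybridized to a Clariom S array. Intensities were summarized by the authors with Transcriptome Analysis Console 4.0 in its default configuration, and the deposited values are a log2 signal per probe set and mouse. Neither the genome build nor the method of summarization is named in the sources used here. Of 22206 probe sets, 19572 had 1 gene symbol and 2634 none, and a gene with several probe sets (55 genes) received their mean. Signals were not normalized again.

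On each array, signals were set against a cutoff, the percentile 95 of 1091 odorant receptor genes. Distances from it were tested in limma 3.58.1 (R 4.3.3) by a two-sided one-sample fit with eBayes and Benjamini-Hochberg adjustment over 19505 genes. A positive distance with an adjusted p under 0.05 made a call, and this called 9 of the 1091 odorant receptor genes, 5 of 319 vomeronasal receptor genes and, of genes for beta-defensins and keratin-associated proteins, 6 of 89. On simulated data of 19505 genes, 1, 147, 198 and 200 of 200 genes set 0, 0.5, 1 and 2 log2 units above the cutoff were called. There is no read depth on arrays, and precision is limited by their number. All p-values measure only how 5 mice of 1 group spread, which the labels number as separate mice.

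Members, lists, motifs and alternatives were chosen with earlier results of these data known. Values per mouse are given for the 3 highest and 3 lowest genes of each role, genes not called, the 5 largest and 3 smallest SDs, genes with a mouse apart, the *Ndufa4* pair and *Ndufab1*, and for genes of other lists the 3 highest and those not called. The subunit genes of complexes II to V are given as a group only. Alternatives were other background sets and percentiles, another prior, leaving out low genes, taking the highest probe set of a gene, quantile normalization, a rule with no model and mice left out. Centring on called genes, and quantile normalization for the deviations per mouse, were chosen after seeing the data. Python 3.11.15 with pandas 2.3.3 and numpy 2.4.6 made the tables.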

Additional observations from a re-analysis of the deposited data

Results flagged for a closer look

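For 4 Nduf genes and 1 regulator, a single mouse lay far from the other 4, judged by the gap to its nearest neighbour divided by the whole range, with a critical value of 0.71 for 5 mice. *Ndufa4* had a ratio of 0.757, with mouse 16 high. *Ndufa5* had 0.768, with mouse 11 low. *Ndufb2* had 0.819, with mouse 14 low. *Ndufs4* had 0.793, with mouse 14 high. *Nrf1* had 0.845, with mouse 11 high. Chance gives such a ratio in about 1 of 20 groups, or 2.3 of 46 Nduf genes, and 475 of 8482 genes called had one. Each gene rests on 1 probe set, and no cause was tested.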

How the results depend on the processing

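The counts of genes called above background, 45 Nduf genes, 37 structural genes and 8 assembly factor genes, were the same under every alternative run, including each mouse left out (45 to 45, 37 to 37 and 8 to 8). For the 45 Nduf genes other than *Ndufa4l2*, all 630 alternative values kept the direction and the call, with distances of at least 0.823 and adjusted p of at most 0.00146. *Ndufa4l2*, at -0.04, read 0.23 with the 90th percentile (adjusted p = 0.257 from limma), between -0.19 and 0.15 with each mouse left out (0.15 without mouse 16, adjusted p = 0.405) and 0.16 without mice 1 and 16 (adjusted p = 0.463). It fell below the cutoff past the threshold with the keratin and beta-defensin set as background, at -0.60 (adjusted p = 0.00873), and with the 99th percentile, at -0.58 (adjusted p = 0.0192). The difference between structural subunits and assembly factors was 5.54 ± 0.14 (SD, n = 5) with means over genes in place of medians, a shift whose cause was not tested, and 5.72 to 5.88 with each mouse left out. The median spread of Nduf genes was 0.67 as a range in place of the SD, and the median SD was 0.246 to 0.304 with each mouse left out. The median deviation in mouse 1, -0.02, turned to 0.015 after quantile normalization and 0.022 when centred on genes called. No paired analysis was possible because the labels give a single group. The number of arrays and the affinity of each probe set limit these values.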
